A study of Mus musculus with 6 samples.

Results

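The genes described here encode 10 proteins that hold the node of Ranvier and its flanks together: the adhesion molecules Nfasc, Nrcam, Gldn, Cntn1, Cntn2, Cntnap1 and Cntnap2, and the scaffold proteins Ank2, Ank3 and Sptbn4. They were chosen by name from the 24062 gene symbols of the table, for their known place at the node, the paranode or the juxtaparanode. All 10 were found, and all 10 were among the 16722 genes with enough counts to be tested. Expression was measured by RNA sequencing of the auditory nerve, dissected from the cochleae of young adult mice of the C57BL/6 strain. The 3 Vcan knockout libraries came from mice deficient in versican, a chondroitin sulfate proteoglycan of the extracellular matrix, and the 3 wildtype libraries from mice that the series design names C57BL/6J. Each library held the RNA of both cochleae of a single animal. The labels give neither the sex of the mice nor the altered part of Vcan, nor whether the change affected all cells.

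The node of Ranvier is the short gap between myelin segments at which sodium channels gather and the action potential is renewed. In peripheral nerve, Schwann cells secrete gliomedin, which binds neurofascin and NrCAM on the axon. Ankyrin G and beta-IV spectrin then anchor these proteins and the channels to the axonal cytoskeleton. At the paranode, contactin-1 and Caspr on the axon bind a glial form of neurofascin and form the seal beside the node. At the juxtaparanode, contactin-2 and Caspr2 hold potassium channels under the myelin. Versican is a matrix component around nodes, where it joins hyaluronan and its link proteins.

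Vcan itself, which checks the labels, was counted at 5.44, 2.70 and 2.88 CPM (counts scaled to library size) in the knockout libraries, against 8.36, 9.61 and 7.32 CPM in the wildtype libraries. All knockout values lay below all wildtype values, but the log2 fold change of −1.20 (SE 0.32) did not pass (edgeR adjusted p = 0.558). In the authors' deposited table Vcan did pass, with a log2 fold change of −0.87 and an adjusted p of 0.0348. The libraries held 74530860 to 92513887 gene counts. Wildtype replicate 3 stood apart, correlating with the others at 0.947 to 0.957 (log2 CPM). Knockout replicate 1 correlated more closely with wildtype replicate 1 (0.977) than with the other knockout replicates (0.961 and 0.962). Neurons and Schwann cells were represented as the label auditory nerve implies: the synaptic protein gene Snap25 averaged 3224 ± 356 CPM in knockout and 2682 ± 1004 CPM in wildtype nerve (SD, n = 3 each), and 9 Schwann cell genes summed to 5238 to 7252 CPM in knockout and 4795 to 7513 CPM in wildtype libraries. Markers of astrocytes and oligodendrocytes, the glia of the central nerve segment, were present too, at a summed 668 to 920 CPM in knockout and 843 to 1609 CPM in wildtype libraries for 7 astrocyte genes. The sum of 8 oligodendrocyte genes was 345 to 629.5 CPM in knockout and 630.3 to 987 CPM in wildtype libraries, so that the sums barely separated. Of the 8 genes taken singly, only Mobp did not overlap between the groups, beside 10.3% of all genes tested. Cldn11, with the highest mean, overlapped, at 138, 347 and 236 CPM in knockout and 213, 379 and 402 CPM in wildtype libraries. The log2 fold change was negative for all 7 astrocyte genes (median −0.71) and all 8 oligodendrocyte genes (median −0.77). Over all genes tested the median was −0.01, and 48.9% were positive. No gene of either list was called in edgeR. Aqp4, picked after its values were seen, was lower in knockout nerve without overlap (edgeR adjusted p = 0.381). In the authors' deposited table Aqp4 passed, with an adjusted p of 0.0037, and Aldh1l1 did not, with an adjusted p of 0.320. The part of such cells in the values below was not tested.

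In the genome (GRCm38), 8 of the genes lie on chromosomes of their own and 2 are neighbours. Cntn2 (chromosome 1, 132509425 to 132543251) and Nfasc (chromosome 1, 132564690 to 132741848) are both transcribed from the minus strand and are 21.4 kb apart, with 1 predicted gene, Gm51646, between them. The other positions are chromosome 10, 69533486 to 70027436, for Ank3 and chromosome 7, 27356383 to 27447704, for Sptbn4. Nrcam lies on chromosome 12, 44328786 to 44605194, and Gldn on chromosome 9, 54286486 to 54341777. Cntn1 lies on chromosome 15, 92051152 to 92341967, and Cntnap1 on chromosome 11, 101174617 to 101190724. Ank2 lies on chromosome 3, 126921607 to 127500347. Cntnap2 (chromosome 6, 45060061 to 47301393) spans 2241 kb, against 16.1 kb for its relative Cntnap1. Little sequence is shared with other genes: at most 1.02% of the 50-base stretches of the longest transcript occurred in another gene (Cntn2). The exons of Cntnap1 overlap Plekhh3 on the other strand over 3.97% of their bases, and those of Sptbn4 overlap 2 predicted genes over 1.40% on the same and 2.54% on the other strand. The exons of Ank2 overlap Gm16958 on the other strand over 0.52%. Whether the counting used strand is not given in the sources used here, so that this small part of the counts of these genes is uncertain.

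Promoter sequence is shown for the genes Gldn and Cntn1, the 2 members whose knockout and wildtype values did not overlap in the comparison below. Both are the 250 bases before an annotated start, 5′ to 3′ on the plus strand (RefSeq, GRCm38.p6), at chr9:54286236-54286485 for Gldn and chr15:92050915-92051164 for the first of the 3 starts of Cntn1. Capitals mark a match to ACAANG, the core bound by SOX factors, to TATAAA or to GGGCGG on either strand.
Gldn: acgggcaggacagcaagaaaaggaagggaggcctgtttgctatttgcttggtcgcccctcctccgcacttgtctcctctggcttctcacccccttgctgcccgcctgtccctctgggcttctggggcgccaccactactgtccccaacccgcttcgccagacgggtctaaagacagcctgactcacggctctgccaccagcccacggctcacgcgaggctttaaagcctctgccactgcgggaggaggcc
Cntn1: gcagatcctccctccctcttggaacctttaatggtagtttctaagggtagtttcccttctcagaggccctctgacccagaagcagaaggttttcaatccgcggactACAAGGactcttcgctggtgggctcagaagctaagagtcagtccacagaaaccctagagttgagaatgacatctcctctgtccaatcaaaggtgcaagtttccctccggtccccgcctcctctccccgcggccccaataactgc
The Gldn window held none of these motifs and the Cntn1 window 1, an ACAANG match. The Gldn window had a GC content of 63.6% and the Cntn1 window one of 53.6%, against a median of 52.4% over 32851 promoters. Entries were matched for 8 of the 10 genes, with 18 starts in all, and not for Ank3 and Cntnap1. Of the 18 windows, 8 held ACAANG, 2 held TATAAA and 7 held GGGCGG, while 36.3%, 12.4% and 32.7% of all promoter windows of this length did. These matches describe the letters only.

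Set per length of transcript, Ank2 and Cntn1 were the most abundant of the 10. Ank2 encodes ankyrin B, an adaptor along axons and in Schwann cell paranodes. It had a median of 69.9 CPM per kb of its longest annotated transcript (14.3 kb) over the 6 libraries, from 43.3 to 92.6. Cntn1 was at 58.5 (32.6 to 75.4), Gldn at 39.6 (21.3 to 47.6) and Nfasc at 37.2 CPM per kb (31.8 to 59.9). Below these came Cntnap1 at 25.7, Cntn2 at 16.2, Sptbn4 at 15.4 and Ank3 at 12.7 CPM per kb. Nrcam at 9.14 and Cntnap2 at 7.03 CPM per kb were lowest. The ranges of every 2 neighbours in this order overlapped, although Ank2 exceeded Cntn1, and Cntn1 exceeded Gldn, in 6 of 6 libraries. Gldn exceeded Nfasc in 2 of 6 libraries and Nrcam exceeded Cntnap2 in 3 of 6, so those neighbours had no steady order. The order depended on the length used. The annotated exons of Cntn1 cover 9.43 kb in all, against 5.67 kb in its longest transcript, and those of Nrcam 13.4 kb against 6.28 kb. Per kb of all annotated exons, 35.0 kb for Ank2 and 34.8 kb for Ank3, Gldn came first at 39.6, then Cntn1 at 35.2 and Ank2 at 28.6 CPM per kb, and Ank3 came last at 3.64. Which transcript forms the nerve used cannot be read from counts per gene.

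**Figure D1:**
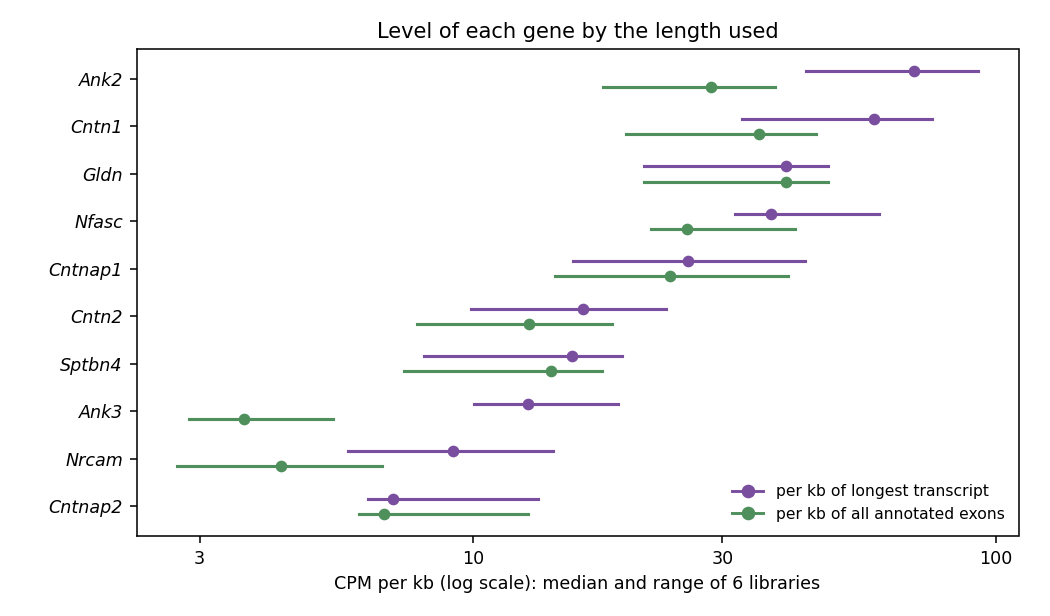
Level of each gene in CPM per kb on a log axis, with the median (point) and range (line) of the 6 libraries, per kb of the longest transcript (purple, upper) and of all annotated exons (green, lower). Ank2 had a median of 69.9 by the longest transcript and 28.6 by all exons, whereas Gldn was at 39.6 by both.

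Among the scaffold proteins of the node, Ank3 encodes ankyrin G, which collects sodium channels at the node. It was at 169, 102 and 99.9 CPM in knockout replicates 1, 2 and 3, against 148, 106 and 188 CPM in wildtype replicates 1, 2 and 3. The groups overlapped, with the highest value in wildtype replicate 3 and the lowest in knockout replicate 3. Sptbn4, the beta-IV spectrin that links ankyrin G to actin, was at 169, 128 and 142 CPM in knockout and at 169, 114 and 70.6 CPM in wildtype libraries. Its groups overlapped as well, and wildtype replicate 3 was lowest. The log2 fold change was −0.25 (SE 0.29) for Ank3 and 0.31 (SE 0.31) for Sptbn4.

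Among the adhesion molecules of the node, Nrcam, an axonal and glial cell adhesion molecule of the L1 family, was at 89.3, 36.2 and 36.4 CPM in knockout libraries, against 70.7, 44.0 and 74.7 CPM in wildtype libraries. Knockout replicate 1 was the highest of all 6 libraries and the other knockout replicates were the lowest, so that the knockout values alone differed 2.47-fold. Gldn, encoding gliomedin, was at 195, 222 and 208 CPM in knockout libraries, against 172, 174 and 99.0 CPM in wildtype libraries. Every knockout library lay above every wildtype library, and the knockout spread was narrow (a coefficient of variation of 6.50%, against 28.8% in wildtype). Nfasc, whose counts join the neuronal form of the node with the glial form of the paranode, was at 541, 326 and 345 CPM in knockout libraries, against 583, 379.7 and 309 CPM in wildtype libraries. Replicate 1 was the highest library of each genotype.

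At the paranode, Cntn1 encodes contactin-1, the axonal partner of Caspr. It was at 428, 368 and 345 CPM in knockout libraries, against 318, 256 and 185 CPM in wildtype libraries. The lowest knockout library lay above the highest wildtype library. Cntnap1, encoding Caspr, was at 206, 130.0 and 141 CPM in knockout libraries, against 235, 139 and 84.4 CPM in wildtype libraries. It thus overlapped fully between the genotypes, and its wildtype values differed 2.78-fold among themselves. Ank2 was at 1325, 972 and 1127 CPM in knockout libraries, against 1027, 744 and 620 CPM in wildtype libraries. Knockout replicate 2 lay below wildtype replicate 1, and the other knockout libraries lay above all wildtype libraries. By mean CPM over all 6 libraries Ank2 ranked 70 among the 16722 genes tested, and Cntn1 403.

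At the juxtaparanode, Cntn2 encodes contactin-2 (TAG-1), present on axon and glia. It was at 167, 113 and 97.7 CPM in knockout libraries, against 172, 125 and 72.6 CPM in wildtype libraries. Cntnap2, encoding Caspr2, was at 131, 69.1 and 69.2 CPM in knockout libraries, against 122, 65.8 and 62.0 CPM in wildtype libraries. For both genes, replicate 1 was the highest library of its genotype and wildtype replicate 3 was the lowest of all.

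**Figure D2:**
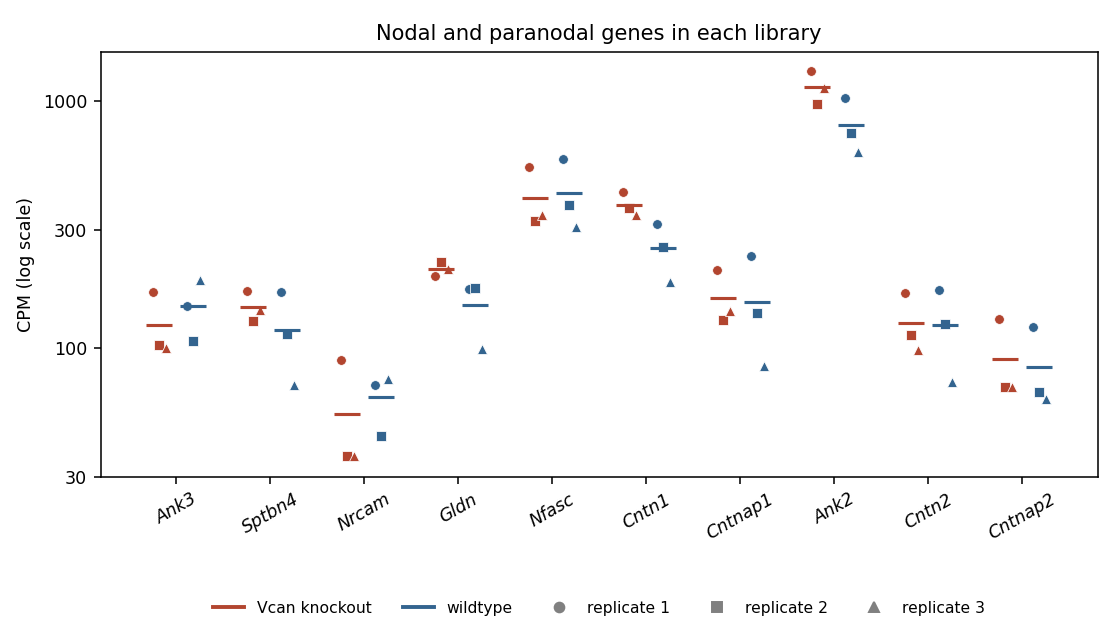
CPM (log scale) of each gene in every library, with Vcan knockout (red) left of wildtype (blue), marker shapes for the replicates and bars for the means of 3 libraries. Gldn and Cntn1 are the genes whose 3 knockout points all sit above the 3 wildtype points.

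None of the 10 genes differed between the genotypes past correction over all 16722 genes (quasi-likelihood test of edgeR, Benjamini-Hochberg adjusted p, threshold 0.05), where 0.138% of genes did. DESeq2, which called 1.39% of genes, and the authors' deposited table, with 1.34%, also gave none of the 10. Cntn1 came nearest, at 380.2 ± 42.6 CPM in knockout and 253 ± 66.7 CPM in wildtype nerve (SD, n = 3 each), a log2 fold change of 0.59 (SE 0.22; edgeR adjusted p = 0.875, unadjusted p = 0.0357). It was the only one with an unadjusted p under 0.05 in edgeR, a level that 5.2% of all genes reached. In the authors' deposited table Cntn1 had an adjusted p of 0.499 and a log2 fold change of 0.48. Ank2 averaged 1141 ± 177 CPM in knockout and 797 ± 209 CPM in wildtype nerve (SD, n = 3 each; log2 fold change 0.52, SE 0.24; edgeR unadjusted p = 0.0689). Gldn averaged 208 ± 13.5 CPM in knockout and 148 ± 42.8 CPM in wildtype nerve (SD, n = 3 each; log2 fold change 0.49, SE 0.23; edgeR unadjusted p = 0.0769). A change in RNA per cell and a change in the number of cells of a type cannot be told apart in such bulk samples.

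Groups that did not overlap were found for 2 of the 10 genes, Gldn and Cntn1, both higher in knockout nerve. Of all genes tested 10.3% did not overlap, and 5.42% were higher without overlap. The log2 fold change was positive for 7 of the 10 and negative for 3, with a median of 0.08, beside a median of −0.01 over all genes tested, of which 48.9% were positive. The remaining values were smaller than their SEs. They were 0.11 (SE 0.36) for Cntnap2, 0.06 (SE 0.38) for Cntnap1, 0.03 (SE 0.34) for Cntn2, −0.07 (SE 0.31) for Nfasc and −0.23 (SE 0.40) for Nrcam. The 95% intervals show how much could have been missed with 3 animals a group. For 5 of the 10 genes the interval lay wholly within a 2-fold change either way. For Cntnap1 in knockout nerve it ran from 0.557 to 1.95 times the wildtype level, and for Nfasc from 0.575 to 1.58 times. For Cntn1 it was 1.04 to 2.18 times, before any correction for the number of genes.

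**Figure D3:**
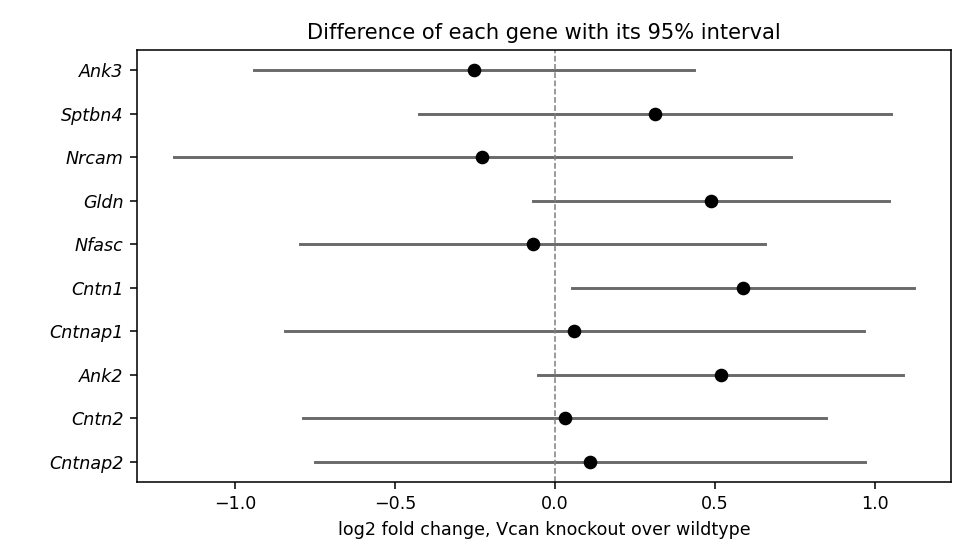
Log2 fold change of Vcan knockout over wildtype for each gene (point) with its 95% interval from edgeR (line), before correction for multiple tests. The interval of Cntn1 alone lies wholly above 0 (0.05 to 1.12), and those of the other 9 genes span 0.

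Most of the 10 genes were high and low in the same libraries, irrespective of genotype. Wildtype replicate 3 held the lowest value of 8 genes, all but Nrcam and Ank3. Knockout replicate 1 held the highest value of 5 genes and wildtype replicate 1 that of 3. Relative to the mean of the 6 libraries, the deviation of wildtype replicate 3 on the log2 scale was −0.85 for Sptbn4, −0.81 for Cntnap1 and −0.80 for Gldn, but 0.52 for Ank3 and 0.44 for Nrcam. The same library was low in neuron markers, with a summed 6748 CPM over 12 genes, against 10304 to 12685 CPM in the other 5 libraries. Not all 12 were low: Gata3 was highest in this library (56.8 CPM), and Map1b (1245 CPM) and Prph (3.52 CPM) lay within the range of the others. Wildtype replicate 3 was also low in Schwann cell markers, with 4795 CPM over 9 genes, against 5238 to 7513 CPM in the others. Of these, Pmp22 (1571 CPM), Sox10 (171 CPM) and Ncmap (137 CPM) lay within the range of the others. The library was high in hair cell markers, genes of the sensory cells next to the nerve endings, with 177 CPM over 5 genes against 58.6 to 117 CPM. Slc17a8 was not highest there (24.0 CPM, against 24.4 CPM in knockout replicate 3). Myo7a was only slightly above knockout replicate 1 (40.1 against 38.8 CPM). The summed level of 4 satellite glia genes was 5498 CPM against 2663 to 3350 CPM. Glul (3224 CPM) and Kcnj10 (492 CPM) were highest in this library, while Fabp7 (18.9 CPM) and Apoe (1763 CPM) lay within the range of the others. The part of these cells in the pattern was not tested. None of the neuron, Schwann cell or hair cell markers was at 0 in any library.

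**Figure D4:**
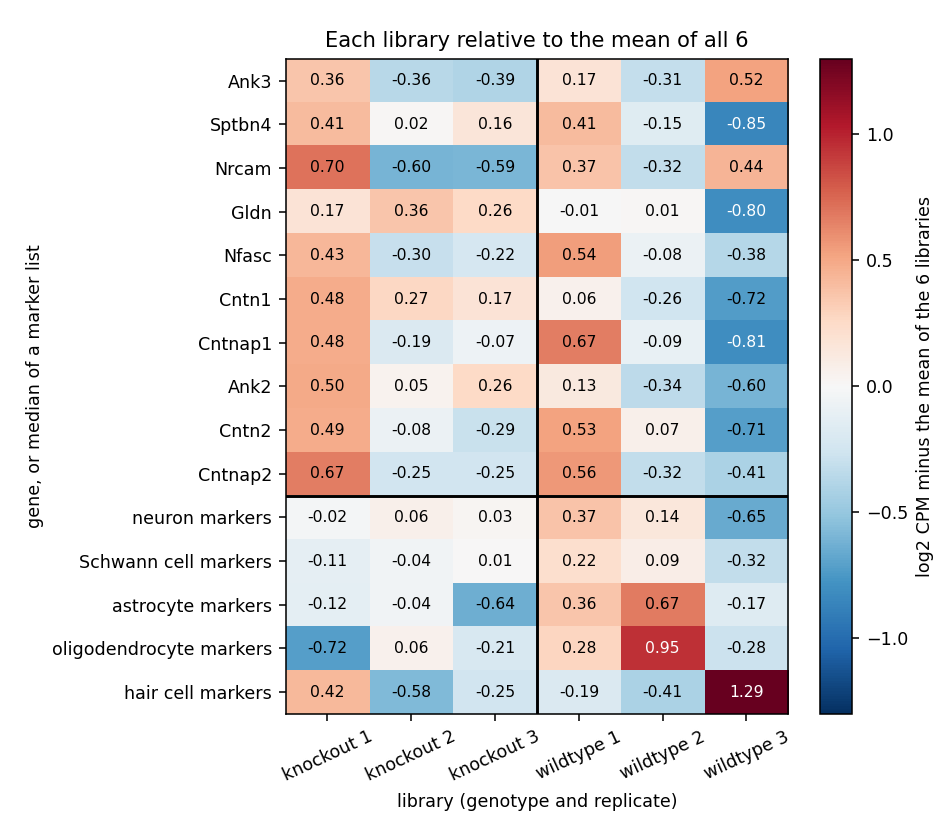
Log2 CPM of each gene minus its mean over the 6 libraries (colour and printed value), with the 3 Vcan knockout libraries left of the 3 wildtype libraries. The lower rows give the median of this quantity over marker lists, with 0.5 CPM added before the log was taken. Wildtype replicate 3 stands at −0.65 for neuron markers and 1.29 for hair cell markers.

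Leaving out a library moved the differences in either direction. Without wildtype replicate 3 the log2 fold change became 0.40 for Cntn1, 0.36 for Ank2, 0.26 for Gldn and 0.04 for Sptbn4, and turned to −0.24 for Cntn2, −0.24 for Cntnap1 and −0.07 for Cntnap2, while that of Nfasc was −0.26. Without wildtype replicate 1 it was instead 0.79 for Cntn1, 0.74 for Ank2 and 0.66 for Sptbn4 (edgeR unadjusted p = 0.0115, 0.0170 and 0.0414), 0.61 for Gldn and 0.23 for Nfasc. In that fit 824 of 17004 genes tested had an unadjusted p under 0.05. None of the 10 genes was called without either of these libraries or any other (edgeR). Without knockout replicate 1 the log2 fold change of Nrcam was −0.80 (edgeR unadjusted p = 0.0202), but without knockout replicate 2 or 3 it was −0.01 in both cases. In the fit without knockout replicate 1, 1755 of 16941 genes tested had an unadjusted p under 0.05, against 870 of 16722 with all 6 libraries.

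Set against the neuron markers of the same library, 3 genes stood higher in knockout nerve with no overlap. This scale, the CPM of a gene as a percentage of the summed CPM of 12 neuron markers, was chosen after the values were seen. Cntn1 was at 3.58%, 3.57% and 3.26% in knockout libraries, against 2.51%, 2.33% and 2.74% in wildtype libraries. The spread within each genotype was narrower than in CPM, and the ratio of the means was 1.37. Ank2 was at 11.1%, 9.43% and 10.7% in knockout libraries, against 8.10%, 6.78% and 9.19% in wildtype libraries. Gldn was at 1.63%, 2.15% and 1.96% in knockout libraries, against 1.36%, 1.59% and 1.47% in wildtype libraries. On this scale the groups did not overlap for 6.94% of all genes, and 1.98% were higher. The exact permutation test gave p = 0.1 for each of the 3, the smallest value that 3 libraries against 3 allow (2-sided, unadjusted). Groups without overlap always give this value, so the test adds nothing to the lack of overlap. The remaining 7 genes overlapped, Cntnap1 for example at 1.73%, 1.26% and 1.33% in knockout and 1.85%, 1.27% and 1.25% in wildtype libraries. This scale shifted the median log2 fold change of all genes to −0.21. With it in an edgeR fit, Cntn1 was at 0.46 (unadjusted p = 0.114) and none of the 10 genes was called. Against the summed Schwann cell markers, the source cells of gliomedin, Gldn was at 3.72%, 3.24% and 2.86% in knockout libraries and 2.295%, 2.32% and 2.07% in wildtype libraries, also without overlap. On that scale too, Cntn1 and Ank2 were higher with no overlap and the other 7 genes overlapped, while 8.67% of all genes did not overlap and 6.72% were higher.

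**Figure D5:**
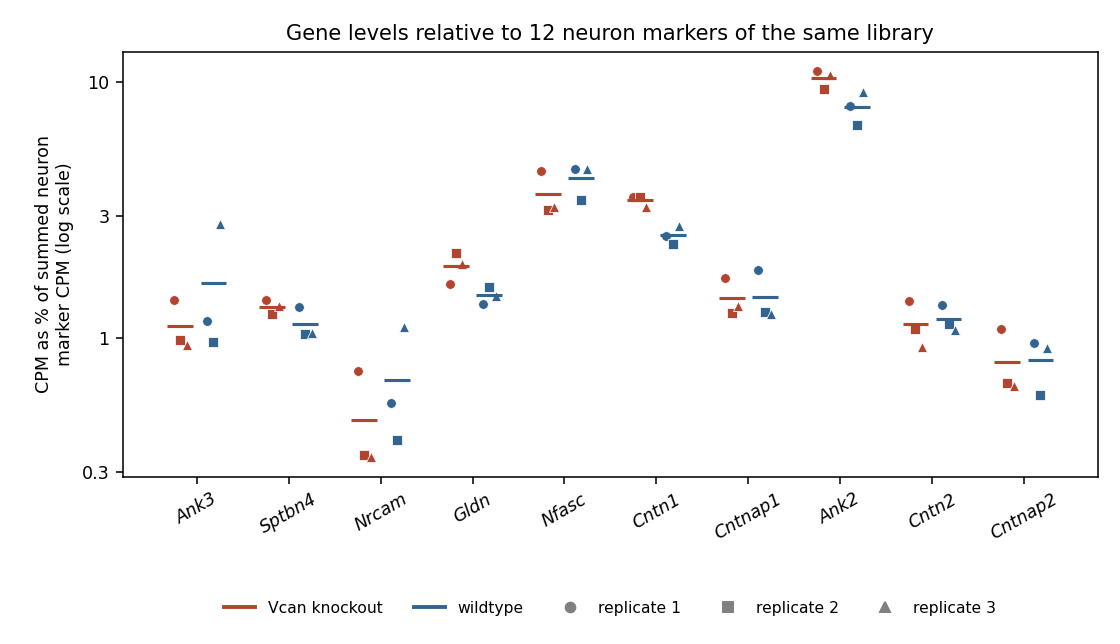
Each gene as a percentage of the summed CPM of 12 neuron markers in the same library (log scale), with Vcan knockout (red) left of wildtype (blue) and bars for means of 3 libraries. Cntn1 sits between 3.26% and 3.58% in knockout and between 2.33% and 2.74% in wildtype libraries.

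Ratios of binding partners within a library do not depend on how libraries are scaled, and 4 were compared. The ratio of contactin-1 to Caspr CPM (Cntn1/Cntnap1) was 2.07, 2.83 and 2.44 in knockout libraries, against 1.36, 1.84 and 2.19 in wildtype libraries. The groups overlapped through knockout replicate 1 and wildtype replicate 3 (log2 difference 0.46, exact permutation test, 2-sided p = 0.2, adjusted p = 0.4 over the 4 ratios). The ratio of contactin-2 to Caspr2 CPM (Cntn2/Cntnap2) was 1.28, 1.63 and 1.41 in knockout libraries, against 1.41, 1.90 and 1.17 in wildtype libraries, a log2 difference of −0.03 (exact permutation test, p = 1.0). For ankyrin G over beta-IV spectrin (Ank3/Sptbn4) the ratio was 1.00, 0.795 and 0.706 in knockout libraries, against 0.877, 0.929 and 2.67 in wildtype libraries. The value of wildtype replicate 3 lay far above the other 5. The ratio of Nrcam to Gldn was 0.458, 0.163 and 0.175 in knockout libraries, against 0.411, 0.253 and 0.755 in wildtype libraries. The log2 difference was −0.65 for Ank3/Sptbn4 and −0.86 for Nrcam/Gldn (exact permutation test, p = 0.3 and adjusted p = 0.4 for both).

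Other genes of the node and its surroundings, taken from 5 lists of 65 genes, gave no call either (edgeR, 0 of 65). Their groups did not overlap for 7 genes (10.8%), close to the 10.3% of all genes, and 4 genes (6.15%) had an unadjusted p under 0.05. The 15 channel genes of the node and juxtaparanode had a median log2 fold change of 0.17, with 12 positive and 3 negative. The potassium channel subunit Kcna1, a partner of Caspr2 at the juxtaparanode, was at 1012, 966 and 1045 CPM in knockout libraries, against 946, 843 and 748 CPM in wildtype libraries, with no overlap (log2 fold change 0.25, SE 0.16). Its partner subunit Kcna2 averaged 920.1 ± 267 CPM in knockout and 833 ± 310.5 CPM in wildtype nerve, and the auxiliary subunit Kcnab2 615 ± 85.0 and 589.9 ± 238 CPM (SD, n = 3 each).

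The 16 submembrane scaffold genes had a median log2 fold change of 0.01, with 8 positive and 8 negative. Sptan1, the alpha-II spectrin that pairs with beta spectrins, was at 2406, 972 and 974 CPM in knockout libraries, against 1665, 914 and 1509 CPM in wildtype libraries. Like Ank3 and Nrcam, it was high in knockout replicate 1, wildtype replicate 1 and wildtype replicate 3, and low in the remaining libraries. Sptbn1, the beta-II spectrin, averaged 924 ± 343 CPM in knockout and 1012 ± 231 CPM in wildtype nerve, and the band 4.1 protein gene Epb4.1l1 415 ± 21.8 and 392 ± 102 CPM (SD, n = 3 each).

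The 11 relatives of the adhesion genes had a median log2 fold change of 0.02, with 6 positive and 5 negative. Cntnap4, a further member of the Caspr family, was at 77.0, 67.4 and 76.7 CPM in knockout libraries, against 61.9, 57.3 and 52.9 CPM in wildtype libraries, without overlap (log2 fold change 0.36, SE 0.13; edgeR adjusted p = 0.816). L1cam, the founding gene of the L1 family, averaged 105 ± 23.9 CPM in knockout and 102 ± 43.4 CPM in wildtype nerve (SD, n = 3 each). Cntnap5a was at 105, 19.4 and 18.6 CPM in knockout libraries and 69.2, 25.3 and 59.0 CPM in wildtype libraries.

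The 13 genes of other axon and glia adhesion proteins had a median log2 fold change of 0.04, with 7 positive and 6 negative. Lgi3, a secreted ligand, averaged 262 ± 7.77 CPM in knockout and 209.9 ± 65.1 CPM in wildtype nerve, and its receptor Adam23 589 ± 64.4 and 521 ± 179 CPM (SD, n = 3 each). Dag1, the dystroglycan of Schwann cells, averaged 272 ± 19.1 CPM in knockout and 283 ± 32.3 CPM in wildtype nerve (SD, n = 3 each). Cadm1, a nectin-like adhesion molecule singled out after its values were seen, was at 152, 229.5 and 258 CPM in knockout libraries, against 131, 142 and 104 CPM in wildtype libraries. The groups did not overlap, and the log2 fold change of 0.76 (SE 0.23) did not pass (edgeR adjusted p = 0.654).

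The 10 perinodal matrix genes, which include Vcan and 1 gene of the oligodendrocyte list (Hapln2), had a median log2 fold change of −0.22, with 3 positive and 7 negative. The link protein gene Hapln4 averaged 409.6 ± 130.0 CPM in knockout and 287 ± 105 CPM in wildtype nerve, and Bcan, the brevican gene, 169 ± 11.2 and 155 ± 65.7 CPM (SD, n = 3 each). Hspg2, the gene of perlecan, averaged 139.8 ± 75.3 CPM in knockout and 168 ± 53.0 CPM in wildtype nerve (SD, n = 3 each), and again knockout replicate 1 was the highest library.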

How the data were processed

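The deposited table gives raw counts per gene and library, made by the authors. Mapping to mm10, counting with HTSeq and a DESeq2 comparison are named, per the submitters' processing notes; no version or aligner is named there. The authors' deposited table also holds, per the file headers, a mean normalised signal, a log2 fold change with its SE, a test statistic (a score) and p-values; these are quoted only where the text names that table.

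Rows with the same symbol and counts were joined (5 rows). Here genes were kept by filterByExpr (16722), libraries scaled by TMM (factors 0.964 to 1.02), and knockout tested against wildtype by edgeR 4.0.16 in R 4.3.3 (robust quasi-likelihood F test, 2-sided, no covariate, Benjamini-Hochberg over all genes, threshold 0.05). The SE is the size of the log2 fold change divided by the square root of F, and intervals use the t quantile. Errors on CPM are SDs over 3 libraries. Lengths and overlaps came from GENCODE release M21, positions and promoters from RefSeq by gene identifier. The fit was checked on simulated counts. No pair of libraries agreed within sampling noise (lowest chi-square per degree of freedom 41.4), so all 6 were counted.

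Groups came from the titles. Members and lists were chosen with earlier results of these data known. All 10 members are described. Of each of 5 further lists, genes past the threshold or else the 3 with the highest mean CPM are named, and of each marker list up to the 2 highest. Marker genes named beyond these were picked after their values were seen. The alternatives were DESeq2 1.42.0, its size factors in edgeR, no filter, a replicate block, leaving out each library, 0.5 CPM added to ratios and, added after the values were seen, scaling to neuron or Schwann cell markers.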

Additional observations from a re-analysis of the deposited data

How the results depend on the processing

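The number of the 10 genes called stayed at 0 under every alternative run. The number of all genes called moved from 23 to 252 with DESeq2, 3 with a replicate block and 11 with libraries scaled to Schwann cell markers, and to between 3 and 14 when 1 library was left out. In the titles the genotypes share replicate numbers, and the block used these numbers. They were not taken to pair the samples: the deviations of same-numbered libraries from their group means correlated at 0.43, 0.22 and −0.15. The column names number the knockout libraries differently, and by those only 2 pairs are shared, knockout with wildtype replicate 1 (0.43) and knockout replicate 2 with wildtype replicate 3 (0.21). The sign of Cntn1, Ank2, Gldn, Sptbn4, Ank3 and Nrcam held under all 12 alternatives, although the values nearest 0 were −0.01 for Nrcam, 0.04 for Sptbn4 and −0.05 for Ank3. With 1 library left out, the log2 fold change ranged from −0.24 to 0.35 for Cntn2, −0.24 to 0.51 for Cntnap1, −0.27 to 0.49 for Cntnap2 and −0.34 to 0.23 for Nfasc, and the log2 difference of Cntn2/Cntnap2 from −0.19 to 0.16. Scaled to neuron markers, Cntn2 was at −0.0651, Cntnap1 at −0.0149 and Cntnap2 at −0.0352, and scaled to Schwann cell markers, Nfasc was at 0.0414. The cause of these changes was not tested. Each of the 10 genes had at least 3135 counts in every library, so that counting error was small beside the spread between libraries.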

Other observations

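The library pattern of Ank3 and Nrcam recurred, in full or in part, in other genes of the lists, picked here after their values were seen. Map1b, a microtubule-associated protein of neurons, was at 2146 CPM in knockout replicate 1 and 1695 and 1245 CPM in wildtype replicates 1 and 3, against 1049, 1065 and 998 CPM in knockout replicates 2 and 3 and wildtype replicate 2. Col1a1, a collagen of bone and connective tissue, was at 137, 42.6 and 44.8 CPM in knockout libraries and 142, 66.8 and 79.5 CPM in wildtype libraries. Its value in wildtype replicate 3 thus lay nearer to wildtype replicate 2 than to wildtype replicate 1. Slc26a5, the motor protein prestin of outer hair cells, was at 13.5, 0.466 and 0.789 CPM in knockout libraries and 4.81, 1.69 and 23.8 CPM in wildtype libraries. These values are given as a description, and no relation between them was tested.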
